A study of Mus musculus with 5 samples.

Results

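Expression of 7 genes of cholesterol metabolism, Hmgcs1, Idi1, Fdft1, Sqle, Cyp51, Insig1 and Srebf2, was compared between the stroke and sham groups of C57BL/6 mice by RNA sequencing. The genes were taken from a list of targets of the transcription factor SREBP2 and matched by symbol, and all 7 were found among the 51912 genes of the authors' deposited table. All 7 also had an adjusted p-value there, as did 17420 genes in all. The series, on the ubiquitin ligase TRIM9 in ischemic stroke, comprised 2 sham and 3 stroke libraries. In the stroke mice the middle cerebral artery was closed for 30 minutes with a coated nylon filament, and only mice whose cerebral blood flow fell by at least 80% were kept. Per the labels' protocols, anaesthesia was with ketamine at 100 mg/kg and xylazine at 10 mg/kg, and motor deficits were scored 24 hours later. The genotype beyond the strain, the tissue, the time of sampling, the age and sex of the mice, and whether a library came from 1 mouse are not stated in the labels. The sham procedure is not described there either. Of the 7 genes 5 encode enzymes of cholesterol synthesis and 2 encode regulators, and none encodes a receptor for uptake. Receptor genes are described with the other genes of the pathway.

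Cells make cholesterol from acetyl-CoA through mevalonate, isoprenoid diphosphates, squalene and lanosterol. SREBP2, encoded by Srebf2, is made as a membrane protein of the endoplasmic reticulum. When membrane sterols are low, SCAP carries it to the Golgi, where proteases release the part that enters the nucleus and switches on genes of sterol synthesis and uptake. When sterols are plentiful, INSIG proteins hold the SCAP and SREBP complex back. The brain makes nearly all of its own cholesterol, since lipoproteins do not cross the blood-brain barrier, and astrocytes and myelinating oligodendrocytes are major sites of synthesis.

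Promoter sequences are shown for the 3 genes with an unadjusted p-value below 0.05 in the comparison described further on, because SREBP2 acts on these genes through sites close to their start. RefSeq windows of 300 bases (250 before and 50 from the start site, GRCm38.p6) were found for 5 of the 7 genes, and Sqle and Fdft1 had no entry. They are printed 5′ to 3′ on the gene's strand, with capitals marking matches to the 5 motifs searched.
Hmgcs1, chr13:119690101-119690400, plus strand: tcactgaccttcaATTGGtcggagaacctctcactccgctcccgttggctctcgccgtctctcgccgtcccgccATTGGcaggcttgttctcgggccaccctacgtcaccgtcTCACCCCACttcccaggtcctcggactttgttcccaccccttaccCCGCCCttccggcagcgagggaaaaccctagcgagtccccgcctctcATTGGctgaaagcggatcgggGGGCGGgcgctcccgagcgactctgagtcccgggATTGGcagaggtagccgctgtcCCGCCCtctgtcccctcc
Idi1, chr13:8885356-8885655, plus strand: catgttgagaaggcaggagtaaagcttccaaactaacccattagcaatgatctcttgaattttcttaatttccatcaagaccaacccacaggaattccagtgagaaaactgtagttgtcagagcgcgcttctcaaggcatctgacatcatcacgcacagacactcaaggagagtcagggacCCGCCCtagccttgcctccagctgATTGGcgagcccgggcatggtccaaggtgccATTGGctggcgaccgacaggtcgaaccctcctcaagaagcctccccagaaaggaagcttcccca
Cyp51, chr5:4104648-4104947, minus strand: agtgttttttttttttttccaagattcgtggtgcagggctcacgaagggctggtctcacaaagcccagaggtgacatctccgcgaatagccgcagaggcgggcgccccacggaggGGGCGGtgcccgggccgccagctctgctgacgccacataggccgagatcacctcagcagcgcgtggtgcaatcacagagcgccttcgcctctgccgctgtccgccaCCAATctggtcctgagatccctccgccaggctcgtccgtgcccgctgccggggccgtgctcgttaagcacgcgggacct
The motifs were searched on both strands. They were a classical sterol regulatory element and, for SREBP too, the shorter TCACNCCAC that lies within it, then CACGTG, the E-box that SREBPs also bind, CCAAT for NF-Y, and CCGCCC for SP1. TCACNCCAC was present in 1 of the 5 windows, that of Hmgcs1, as TCACCCCAC at position -137 from the start site, and in 1.24% of all 32851 RefSeq windows. The full element was in 0 of the 5 windows and in 0.0913% of all windows. CCAAT was in 5 of 5 windows, against 37.4% of all windows, and CCGCCC was in 5 of 5, against 35.7%. The Hmgcs1 window held 4 matches to CCAAT and 3 to CCGCCC, the Idi1 window 2 and 1, and the Cyp51 window 1 and 1. CACGTG was in the window of Insig1 alone among the 5, and in 7.15% of all windows. These matches are letters in a window and were not tested as binding sites.

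Values per library were recovered as whole reads from the deposited mean, fold change and standard error, for 15957 of 16088 genes tried and for all 7 cholesterol genes. They are given divided by the size factor of the library, and called normalized reads. Stroke libraries 1, 2 and 3 are so named by falling size factor (1.16, 1.13 and 1.12). The sham library with the larger factor (0.945) is termed the deeper and the other (0.734) the shallower. Neither naming corresponds to the replicate numbers of the labels, to which the recovered libraries could not be tied. The 2 sham libraries differed from each other in markers of tissue makeup. The summed normalized reads of 5 red cell markers came to 2801 for the deeper sham library, to 474 for the shallower, and to between 67.2 and 229.8 for the stroke libraries, and all 5 fell in stroke in the authors' deposited table. Those of 5 choroid plexus markers came to 1453 for the deeper sham library, 207 for the shallower and 371 to 385 for stroke, and 2 of 6 such markers (Ttr and Folr1) fell. Of 8 markers each, 0 were called for neurons (median log2 fold change 0.18), astrocytes (-0.03), oligodendrocytes (-0.23), microglia (0.41) and endothelium (0.38) in the authors' deposited table, and 2 each of microglia and endothelium had an unadjusted p below 0.05. Of 8 leukocyte markers 3 had an adjusted p-value and 0 were called, with a median of 0.43. No listed marker was at 0. The oligodendrocyte sum, over 5 markers, was 18782 for the deeper sham library and 9494 for the shallower, on either side of the stroke libraries at 12161 to 14336. Summed astrocyte markers (4 genes) were 12990.2 to 15555 in sham and 12012 to 15506 in stroke. The microglia sum, over 8 markers, was 7005 to 8502 in stroke and 4007 to 6935 in sham, so that every stroke library lay above both sham libraries. The endothelial sum, over 8 markers, was 9400 to 11829 in stroke and 7127 to 9826 in sham. A few further genes are given here, named after their values were seen. Xist, the transcript that silences an X chromosome in female cells, fell by 10.10 on the log2 scale in the authors' deposited table (SE 2.19, adjusted p = 0.0014). Of 4 Y-linked genes (Ddx3y, Uty, Eif2s3y and Kdm5d) 0 were called there, each had reads in all 5 libraries, and each was lowest in the deeper sham library. The RNA genes Rn7sk (-9.28), Rpph1 (-9.20), Rmrp (-8.66) and mt-Rnr2 (-3.53) also fell in stroke in the authors' deposited table. Reads per library were not recovered for Xist or for these RNA genes, and their standard errors were large, at 1.04 to 2.47. Whether every library of a group followed these fold changes is therefore not known. The part that tissue makeup, the sex of the mice or RNA content has in the results below was not tested. In bulk RNA, fewer cells of a type and less RNA per cell cannot be told apart.

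All 7 cholesterol genes had higher mean expression in stroke than in sham, by 1.25-fold to 2.20-fold, and none of these differences passed the threshold. The microglia marker sum, given above, was also higher in stroke, but narrowly, with a lowest stroke value of 7005 and sham values of 4007 and 6935. Of its 8 markers 0 were called. Xist and 4 RNA genes were called lower in stroke in the authors' deposited table, with no reads per library to show how the libraries differed. In the authors' deposited table, by DESeq2's Wald test, 0 of 7 were called at an adjusted p below 0.05, against 1.56% of all genes tested (0.775% higher and 0.786% lower). An unadjusted p below 0.05 was reached by 3 of 7 (Hmgcs1, Cyp51 and Idi1), all higher in stroke. Of all 17420 genes tested, 843 (4.84%) reached it with higher values in stroke and 986 with lower values. Among the 11519 genes with a mean normalized count of at least 132.4, these numbers were 660 and 300. With limma on the recovered reads Hmgcs1, Cyp51 and Idi1 had an unadjusted p below 0.05, as did 1192 of 15957 genes in either direction. At an adjusted p below 0.05 limma called 0 of 7, and 0.0251% of all genes. The count was also 0 of 7 with p-values adjusted over every gene that had a read, against a fold of 1.5, or with fold changes re-centred, where 0.591%, 0.155% and 1.69% of all genes were called. With low means left out, Idi1 among them, 0 of the other 6 were called, against 1.23% of the genes kept. The fold change was positive for 7 of 7, against 47.2% of all genes tested and 53.7% of those with a mean of at least 132.4. The median log2 fold change of the 7 was 0.49, and that of all genes tested was -0.02. The 7 genes were measured in the same 5 libraries and are not independent of each other. They were also chosen with earlier results of these data known, so their shares beside those of all genes are no independent support. Of the other synthesis genes, described further on, 4 of 6 mevalonate and isoprenoid genes and 6 of 9 sterol ring genes had a positive fold change.

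**Figure D1:**
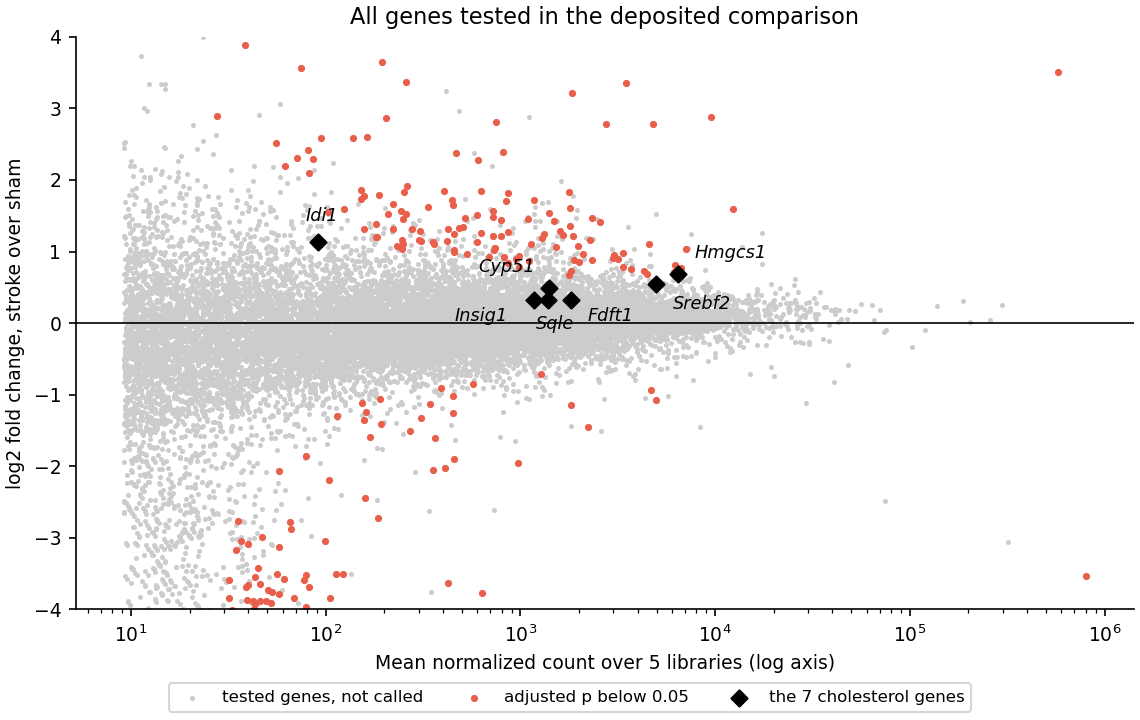
Log2 fold change (stroke over sham) against the mean normalized count over 5 libraries on a log axis, for 17415 of the 17420 genes tested. Grey points are genes that were not called, red points genes with an adjusted p below 0.05, and black diamonds the 7 cholesterol genes, which lie above 0 between 0.32 and 1.14. Of the 17415 genes, 219 lie beyond the axis limits of 4 and -4 and are not visible.

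Hmgcs1 (ENSMUSG00000093930, chr13:119690379-119708260, GRCm38) encodes the cytosolic HMG-CoA synthase, which condenses acetyl-CoA with acetoacetyl-CoA on the way to mevalonate. Its normalized reads were 8201, 8544 and 5873 in stroke libraries 1, 2 and 3, and 4272 and 5143 in the deeper and shallower sham libraries. All 3 stroke libraries lay above both sham libraries, with stroke library 3 only 1.14-fold above the higher of them. In the authors' deposited table the log2 fold change was 0.68 (SE 0.25, p = 0.0064, adjusted p = 0.180), or 1.60-fold with a 95% interval of 1.14 to 2.25. This was the smallest p-value of the 7, and 618th among all genes tested.

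Idi1 (ENSMUSG00000058258, chr13:8885501-8892451) encodes the isomerase that interconverts the isoprenoid building blocks isopentenyl and dimethylallyl diphosphate. It had few reads, 122, 154 and 120 in stroke libraries 1, 2 and 3, and 21 and 62 in the deeper and shallower sham libraries. Normalized, these were 105, 136 and 107 in stroke against 22.2 and 84.5 in sham. The stroke libraries were close to each other and above both sham libraries, while the sham libraries lay far apart, the deeper at 0.263 times the shallower. The log2 fold change in the authors' deposited table was the largest of the 7 and the least precise, 1.14 (SE 0.57, p = 0.046, adjusted p = 0.454), or 2.20-fold with an interval of 1.02 to 4.77.

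Fdft1 (ENSMUSG00000021273, chr14:63145150-63179578) encodes squalene synthase, the first enzyme that commits isoprenoids to sterols. Its normalized reads were 2229, 2183 and 1514 in stroke and 1290.3 and 1863 in the deeper and shallower sham libraries. The groups overlapped, since stroke library 3 lay below the shallower sham library. The log2 fold change in the authors' deposited table was 0.33 (SE 0.28, p = 0.252, adjusted p = 0.830), with an interval of 0.851-fold to 1.85-fold.

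Sqle (ENSMUSG00000022351, chr15:59315077-59331192) encodes squalene epoxidase, which adds oxygen to squalene and is a slow step of the pathway. Normalized reads were 1475, 1601 and 1434 in stroke, and 1366 and 1042 in the deeper and shallower sham libraries. The groups did not overlap, but the lowest stroke library was only 1.05-fold above the deeper sham library. The log2 fold change in the authors' deposited table was 0.32 (SE 0.22, p = 0.151, adjusted p = 0.726), the smallest of the 7.

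Cyp51 (ENSMUSG00000001467, chr5:4081145-4104746) encodes the demethylase that takes lanosterol towards cholesterol. Its normalized reads were 1524, 1734 and 1491 in stroke and 1192 and 1064 in the deeper and shallower sham libraries. Cyp51 had the widest gap between the groups of the 7 genes together with Idi1, with the lowest stroke library 1.25-fold above the highest sham library for both. In the authors' deposited table the log2 fold change was 0.49 (SE 0.20, p = 0.016, adjusted p = 0.281), the smallest standard error of the 7, or 1.40-fold with an interval of 1.06 to 1.85.

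The 2 regulators did not separate the groups. Insig1 (ENSMUSG00000045294, chr5:28071363-28078662), whose protein retains the SCAP and SREBP complex in the endoplasmic reticulum and is itself induced by SREBPs, had 1634, 1339 and 854 normalized reads in stroke and 1067 and 969 in the deeper and shallower sham libraries. The stroke libraries spanned both sham values, with stroke library 3 the lowest of all 5 libraries. Its log2 fold change in the authors' deposited table was 0.33 (SE 0.31, p = 0.299, adjusted p = 0.863), with an interval of 0.819-fold to 1.92-fold.

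Srebf2 (ENSMUSG00000022463, chr15:82147181-82205379), which encodes SREBP2 itself, had 6317, 6029 and 4808 normalized reads in stroke and 5129 and 2684 in the deeper and shallower sham libraries. The deeper sham library lay above stroke library 3, and the 2 sham libraries differed 1.91-fold. Their oligodendrocyte marker sums, 18782 and 9494, stood in the same order. So did the sums of every other marker list except endothelium, at 7127 in the deeper and 9826 in the shallower. The part of these differences in the Srebf2 values was not tested. The log2 fold change in the authors' deposited table was 0.55 (SE 0.32, p = 0.081, adjusted p = 0.577), with an interval of 0.954-fold to 2.25-fold. The values are of Srebf2 mRNA and do not measure the cleaved protein.

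**Figure D2:**
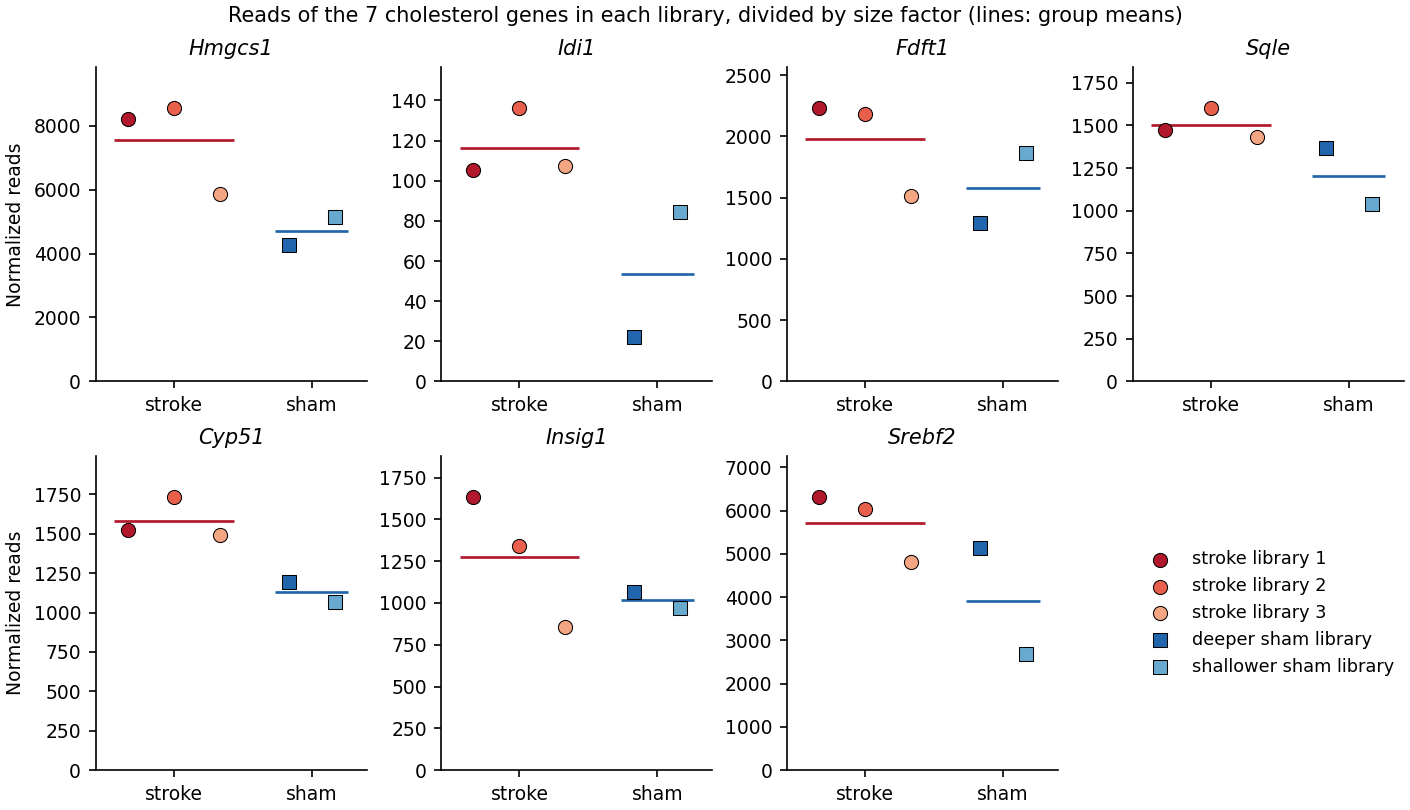
Normalized reads (recovered whole reads divided by size factor) of each cholesterol gene in each library, 1 panel per gene with its own linear axis from 0. Circles are the 3 stroke libraries, squares the 2 sham libraries, and lines the group means. Every circle lies above both squares for Hmgcs1, Idi1, Sqle and Cyp51, and stroke library 3 lies below at least 1 sham library for Fdft1, Insig1 and Srebf2.

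In 4 of 7 genes every stroke library lay above both sham libraries, against 12.9% of the 15957 genes with recovered reads (11.9% had every stroke library below). Of the 10113 such genes with a mean of at least 132.4, 1487 had every stroke library above and 898 every one below. Since the 7 were chosen with earlier results of these data known, this contrast is no independent support. An exact two-sided permutation test of 3 against 2 libraries cannot go below p = 0.2, the value reached by these 4 genes, so it cannot pass a threshold of 0.05. Its p was 0.4 for Fdft1 and Srebf2 and 0.6 for Insig1. Nothing in the sources says that the libraries came from separate animals, and all p-values then measure only the spread between these libraries.

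Per kilobase of exon, mean normalized reads over the 5 libraries ran from Hmgcs1 at 1395 through Srebf2 at 695, Fdft1 at 430, Insig1 at 379, Cyp51 at 317 and Sqle at 249.5 to Idi1 at 26.0. Hmgcs1 stood apart, with its lowest library (930) above the highest of Srebf2 (879). Idi1 was likewise separate at 6.34 to 38.8, below the lowest Sqle library (188). Srebf2 (374 to 879) overlapped Fdft1 (305 to 527), which in turn overlapped Insig1 (276 to 528). The ranges of Insig1 and Cyp51 (241 to 393) overlapped, as did those of Cyp51 and Sqle (188 to 289). Compared within each library, Cyp51 exceeded Sqle in 5 of 5, by at most 1.36-fold. The order of Srebf2 and Fdft1 held in 4 of 5 libraries, that of Fdft1 and Insig1 in 3 of 5 and that of Insig1 and Cyp51 in 4 of 5, so these neighbours did not keep 1 order. By group, Hmgcs1 was at 1641 in stroke and 1025 in sham per kilobase, and Idi1 at 33.2 and 15.2.

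The spread within each group had parts in common and parts that differed between genes. Relative to each gene's own mean on the log2 scale, stroke library 3 was the lowest stroke library for 6 of 7 genes, the exception being Idi1. Its mean deviation over the 7 genes was -0.01, against 0.33 and 0.38 in stroke libraries 1 and 2. The sham libraries did not keep 1 order. The deeper lay above the shallower for 4 genes (Sqle, Insig1, Cyp51 and Srebf2) and below it for 3 (Hmgcs1, Idi1 and Fdft1). The largest deviations were those of Idi1 in the deeper (-1.77) and Srebf2 in the shallower sham library (-0.84).

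**Figure D3:**
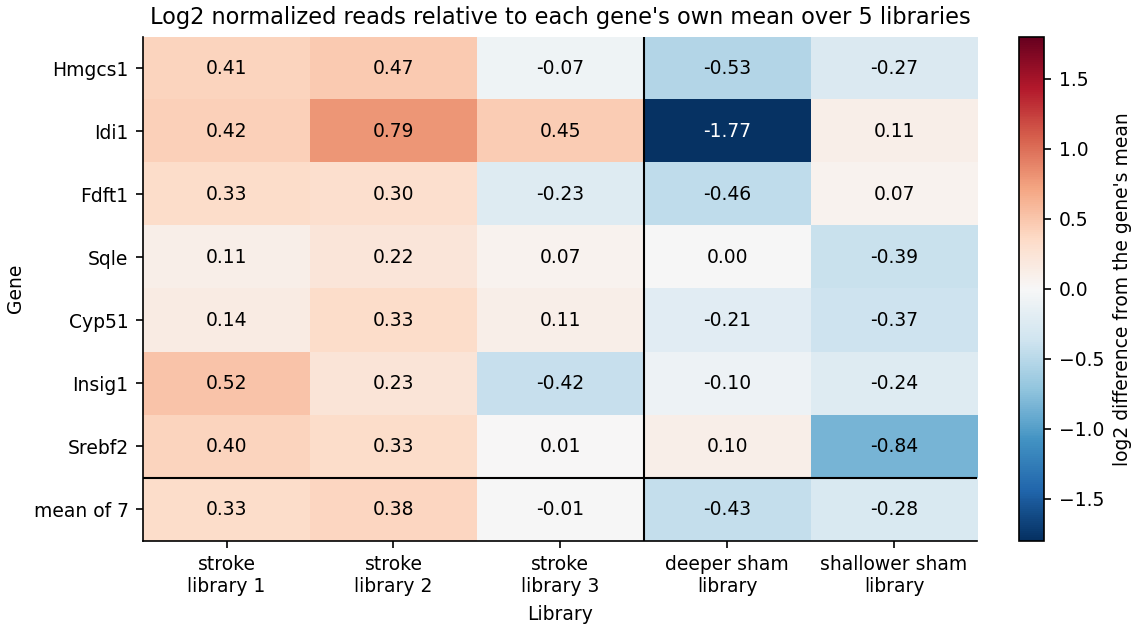
Log2 normalized reads (plus 1) of each cholesterol gene in each library, as the difference from that gene's mean over the 5 libraries, with the mean of the 7 genes in the last line. Stroke libraries 1 and 2 are positive for every gene, while stroke library 3 lies between -0.42 (Insig1) and 0.45 (Idi1).

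Leaving out 1 sham library changed calls. Without the deeper sham library, limma on recovered reads called 3 of the 7, Srebf2 (log2 difference 1.08, adjusted p = 0.012), Cyp51 (0.57, adjusted p = 0.046) and Sqle (0.53, adjusted p = 0.049), in a fit that called 18% of all genes. Without the shallower sham library it called Idi1 alone (2.33, adjusted p = 0.0097), in a fit that called 3.03% of all genes. In both fits the spread came from the 3 stroke libraries, and the lone sham library was assumed to vary like them. Leaving out stroke library 1, 2 or 3 gave 0 calls among the 7, in fits that called 0.00627%, 0.0188% and 0.0125% of all genes. The difference stayed positive for all 7 genes in each of the 5 fits. For Hmgcs1, Idi1, Sqle and Cyp51 it had to, since every stroke library lay above both sham libraries. The range of the difference was 0.45 to 2.33 for Idi1, 0.15 to 1.08 for Srebf2, 0.06 to 0.59 for Fdft1 and 0.07 to 0.54 for Insig1. It was narrowest for Cyp51 (0.41 to 0.57) and for Hmgcs1 (0.53 to 0.84).

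**Figure D4:**
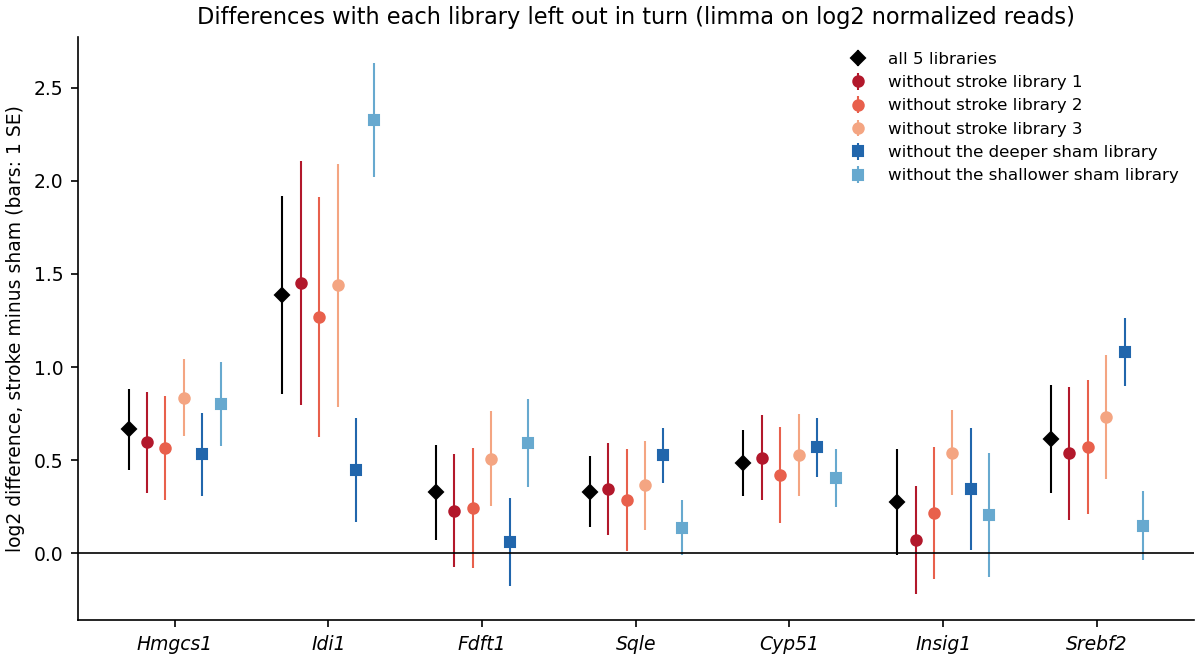
Log2 difference, stroke minus sham, of each cholesterol gene from limma on log2(normalized reads + 1), with all 5 libraries (black diamonds) and with each library left out (circles for stroke, squares for sham). Bars are 1 standard error, and all points lie above 0. The squares of Idi1 and Srebf2 lie farthest apart, in opposite order.

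The genes outside the lists whose profile over the 5 libraries was closest to the mean profile of the 7 were Vhl, Gm34583, 2700062C07Rik, C130074G19Rik and Sh3bp5, among 10005 genes whose mean normalized count reached 132.4 (5 CPM of the summed means). Likeness was the Euclidean distance between log2 profiles centred on their own mean, from 0.117 for Vhl to 0.151 for Sh3bp5. Vhl, which encodes a subunit of a ubiquitin ligase, had 1345, 1359.6 and 1149 normalized reads in stroke and 828 and 891 in sham (in the authors' deposited table, adjusted p = 0.159). Of the 7 genes themselves, Hmgcs1 was closest to their mean profile (0.169), with 10 of these genes closer, and Idi1 the farthest (1.53), with 9510 closer.

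Among 57 other genes of the pathway in 6 lists, 1 rose in stroke and 0 fell in the authors' deposited table, against 0.775% and 0.786% of all genes tested, and limma called 0 of the 53 with recovered reads. The gene that rose was Ch25h, which encodes cholesterol 25-hydroxylase, whose product restrains SREBP processing. Its normalized reads were 67.4, 124 and 189 in stroke and 22.2 and 30.0 in sham, so that every stroke library lay well above both sham libraries. In the authors' deposited table it rose by 2.29 on the log2 scale (SE 0.56, adjusted p = 0.0076), with an adjusted p of 0.479 by limma.

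Of 6 other mevalonate and isoprenoid genes 0 were called in the authors' deposited table, with 0 at an unadjusted p below 0.05, 4 positive and a median log2 fold change of 0.21. Pmvk, a kinase that acts on phosphomevalonate, was at 0.28 (SE 0.28) and Ggps1, which leads to protein prenylation, at -0.19 (SE 0.26) there. Of 9 genes of the later sterol ring steps 0 were called, with 0 at an unadjusted p below 0.05, 6 positive and a median of 0.03. Msmo1, a sterol methyl oxidase that acts after Cyp51, had 2033, 2099.6 and 1535.5 normalized reads in stroke and 1534.8 and 1214 in the deeper and shallower sham libraries. All 3 stroke libraries of Msmo1 lay above both sham libraries, stroke library 3 by very little, and the authors' deposited table gave 0.46 on the log2 scale with SE 0.25 and an adjusted p of 0.525. Sc5d was at 0.03 (SE 0.23) there.

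Of 9 genes that control SREBP 0 were called, with 0 at an unadjusted p below 0.05, 3 positive and a median of -0.05. There Srebf1, which encodes the related SREBP1, was at -0.10 (SE 0.35), Scap at -0.05 (SE 0.24), Insig2 at -0.18 (SE 0.22) and the protease gene Mbtps1 at -0.15 (SE 0.20) in the authors' deposited table. The sign of Srebf1 was not stable, at 0.017 by limma, and its normalized reads were 1185, 1017 and 1102 in stroke against 1628 and 725 in the deeper and shallower sham libraries.

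Uptake was represented by 10 genes of receptors and sterol transport, of which 0 were called and 5 were positive in the authors' deposited table. Every stroke library lay above both sham libraries for 4 of the 9 with recovered reads, against 12.9% of all genes with recovered reads. This held for 0 of 6 mevalonate and isoprenoid genes, 1 of 9 sterol ring genes and 1 of 9 genes controlling SREBP. It held for 1 of 11 efflux and turnover genes and 2 of 9 fatty acid genes with recovered reads. The lipoprotein receptor genes Lrp1 and Vldlr were, by the authors' deposited table, at 0.40 (SE 0.22) and -0.10 (SE 0.25). An unadjusted p below 0.05 was reached by 1 of the 10, Scarb1, the HDL receptor gene, which is named after its values were seen. Scarb1 had 1035, 906 and 627 normalized reads in stroke and 567 and 332 in the deeper and shallower sham libraries. The authors' deposited table gave it a log2 fold change of 0.93, with SE 0.34 and an adjusted p of 0.182.

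Ch25h was the only one called of 13 genes of sterol efflux and turnover in the authors' deposited table, and the list's median was -0.06. Apoe, the main lipoprotein gene of astrocytes, was at -0.06 (SE 0.36) and Clu at 0.01 (SE 0.25) in the authors' deposited table. Of 10 fatty acid genes, which answer mainly to SREBP1, 0 were called, with 1 at an unadjusted p below 0.05 (Fasn), 6 positive and a median of 0.11. Fasn, the fatty acid synthase gene, was at 0.46 (SE 0.19, p = 0.014, adjusted p = 0.261) and Scd2 at 0.23 (SE 0.24) in the authors' deposited table. Over the 57 genes 28 fold changes were positive and the median was -0.0029, near that of all genes tested. Every stroke library lay above both sham libraries for 9 of the 53 with recovered reads (17.0%, against 12.9% of all genes) and below for 1 (1.89%, against 11.9%). Without the deeper sham library limma called 6 of the 53 (11.3%), all higher in stroke, in the fit that called 18% of all genes. They were Ch25h, Fasn (0.60, adjusted p = 0.024), Srebf1 (0.60, adjusted p = 0.041), Scarb1, Mvd and Nr1h2.

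**Figure D5:**
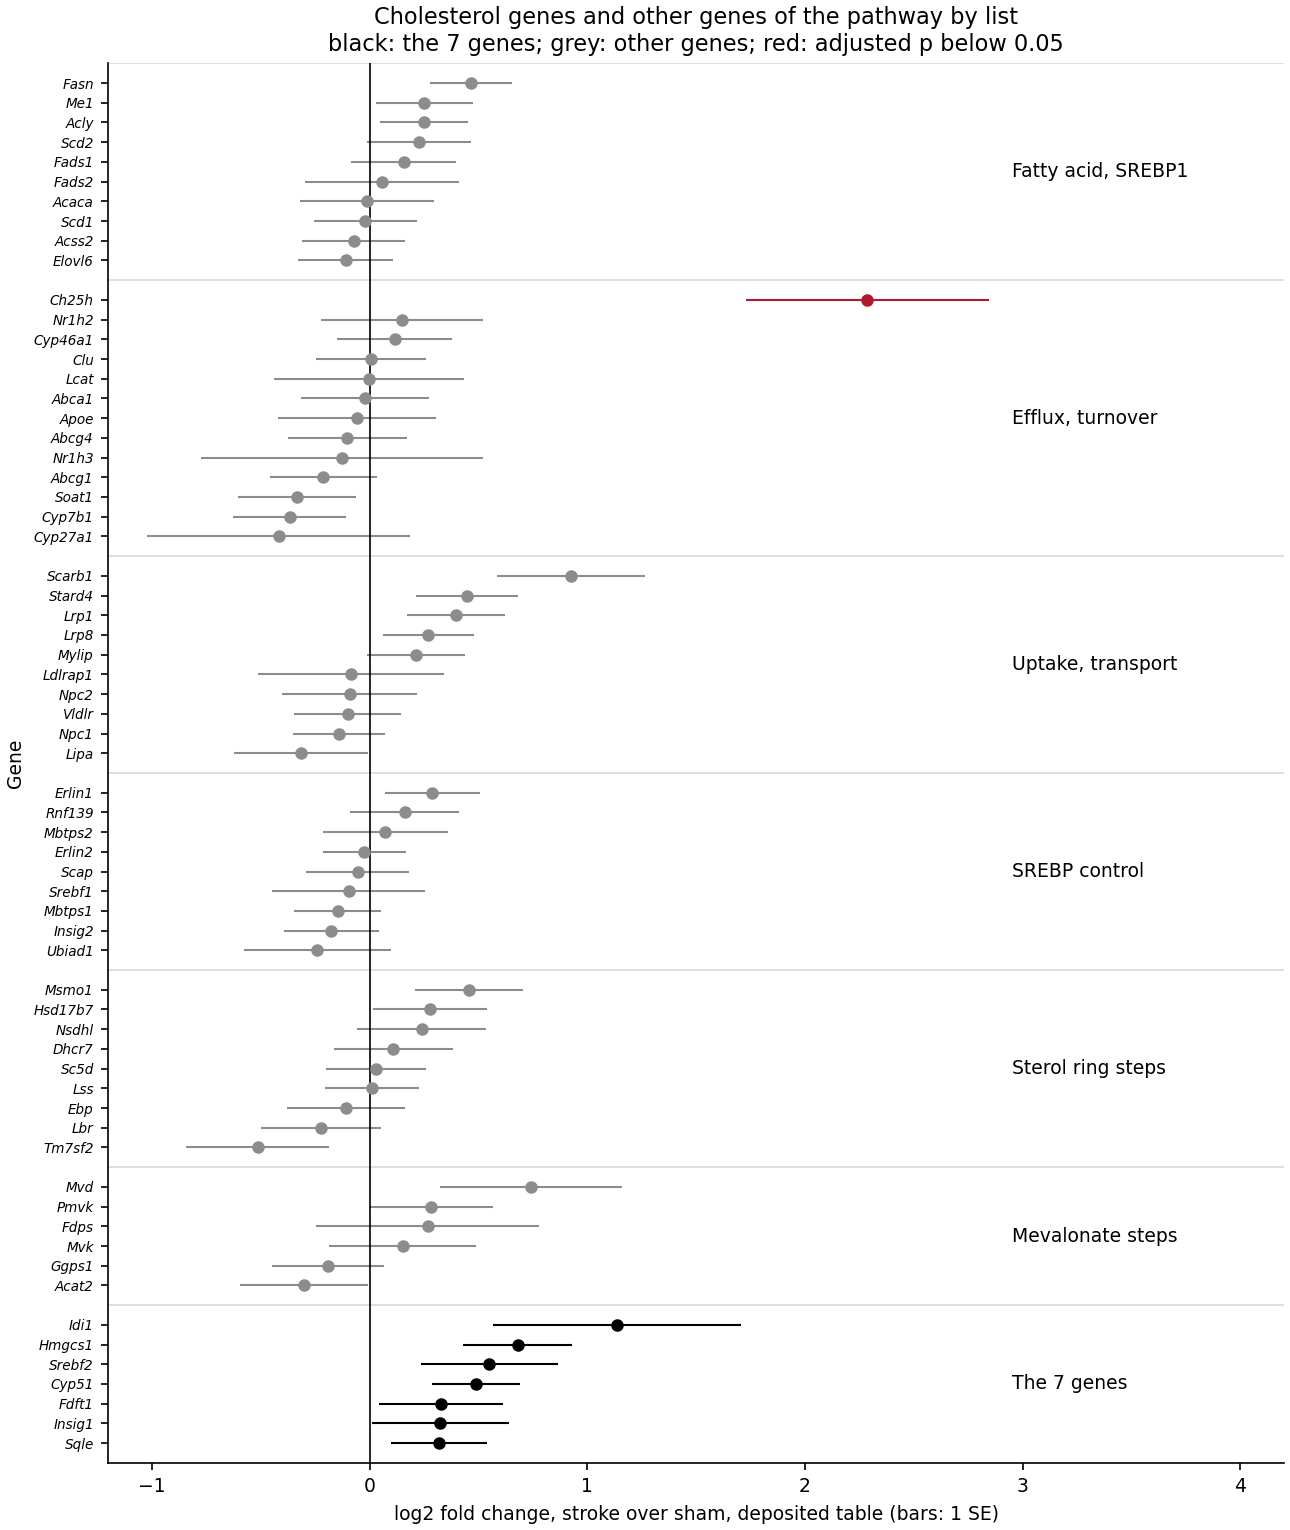
Log2 fold change (stroke over sham, authors' deposited table) with 1 standard error for the 7 cholesterol genes (black) and 57 other genes of the pathway (grey), by list. The red point, Ch25h, has an adjusted p below 0.05. All 7 black points lie above 0, and the other lists have points on both sides.

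Some reads could belong to neighbouring transcripts. The libraries were made with a stranded kit, but the strand setting used in counting was not given. In GENCODE M21, exons on the opposite strand overlap 774 bases of Fdft1 (Ctsb, 18.3% of its exon bases), 557 of Hmgcs1 (Gm48342, 12.1%), 323 of Idi1 (Gm48574, 9.22%) and 166 of Cyp51 (Akap9, 3.76%). Sqle, Insig1 and Srebf2 had no such overlap.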

How the data were processed

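Per the labels' protocols, TRIzol and RNeasy kits gave the RNA, and a KAPA stranded kit the libraries. Reads were processed by the authors on GRCm38 with STAR 2.5.2b and featureCounts 1.5.1, and tested with DESeq2 1.14.1, all per the submitters' processing notes. The deposited table has 1 line per gene, with no values per library. The authors gave a signal, the mean of read counts divided by size factors, which sums to 26479768 over all genes. The authors also deposited a log2 fold change and its standard error, a Wald score, a p-value and a Benjamini-Hochberg adjusted p-value. The libraries' total reads, the annotation and the strand setting were not given in the sources used here.

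Genes with 1 read in 1 library gave the size factors, and the 3 values with a positive fold change set stroke as numerator. Whole reads were searched (Python 3.11.15, numba 0.67.0) that returned the deposited mean, standard error and fold change (tolerance 8e-10). The dispersion behind the standard error also had to match the one the reads gave. That estimate was shrunken towards the trend over genes, or left unshrunken if far above it. Before this step 41 sets remained for Hmgcs1, 30 for Srebf2 and 1 for each other cholesterol gene. After it 1 set was left for each, also at tolerances of 5e-10 and 5e-09. The recovery and limma were tested on simulated data. Alternatives used limma 3.58.1 (R 4.3.3, trend, robust) on log2(normalized reads + 1) of the recovered reads. No test with a count model was run on the recovered reads. Genes of 12000 or more mean counts, and most unlisted genes above 4000, have no recovered reads here.

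The threshold for a call was an adjusted p below 0.05, and intervals are 95% (1.96 SE). The named genes are the 7, called genes of each other list (up to 3), its 2 uncalled genes with the highest mean, and Srebf1, Scap and Insig2. Some genes of the pathway are not reported here. The members, lists and rules were chosen with earlier results of these data known. Re-counting, another aligner and samples outside the 5 libraries were not used here.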

Additional observations from a re-analysis of the deposited data

How the results depend on the processing

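Of 56 member fold changes fitted anew by limma (all libraries, or 1 left out), 56 were positive; 52 kept their side of the threshold and 4 passed it. For Hmgcs1, Idi1, Sqle and Cyp51 the sign could not turn in any of these fits, since every stroke library lay above both sham libraries. The fits on all 5 libraries differ from each other only in the pseudocount. The remaining values are no test of the sign either, since 20 keep the deposited fold change and 7 add 1 constant to it. The number of cholesterol genes called was 0 when p-values were adjusted over every gene that had a read, with genes under a mean of 132.4 left out (Idi1 among them, which leaves 6), against a fold of 1.5, with fold changes re-centred by the median of all genes (-0.02), and by limma with pseudocounts of 0.5, 1 and 5. With 1 library left out it was 0 to 3, and the 4 that passed were Srebf2 (1.08), Cyp51 (0.57) and Sqle (0.53) without the deeper sham library and Idi1 (2.33) without the shallower. Fits with 1 sham library left take their spread from the stroke libraries. The number of other pathway genes called, 1 in the deposited test (Ch25h), was 0 without low means (Ch25h among those left out), 0 against a fold of 1.5, 0 by limma with each pseudocount, and 0 to 6 with 1 library left out. The 6 (Ch25h, Fasn, Mvd, Nr1h2, Scarb1 and Srebf1) were called without the deeper sham library, in a fit that called 18% of all genes. Srebf1 changed sign by limma (0.017 with pseudocounts of 0.5 and 1, 0.016 with 5). With 1 library left out the sign also changed for Srebf1 (-0.57 to 0.60, with 0.073 and 0.015 without stroke library 2 and 3), Ggps1 (-0.48 to 0.16), Sc5d (-0.11 to 0.16, -0.072 without stroke library 2), Scap (-0.28 to 0.21, 0.0078 without stroke library 2) and Vldlr (-0.32 to 0.13, 0.0092 without stroke library 1). The causes were not tested. Settings chosen after seeing the data were limma with all 5 libraries for both counts of calls, leaving out a library for the count of other pathway genes, the adjustment over every gene, the filter on low means and the fold of 1.5 for member fold changes, and every setting for the other named genes. No paired analysis was possible because the table carries no replicate numbers and the recovered libraries could not be tied to the labels. Low reads limit Idi1, with 21 and 62 in the sham libraries.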
